A study of Bos taurus with 15 samples.

Results

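Epithelial cells of the bovine endometrium are held together by junction proteins, are stiffened by keratins and carry mucins on their free surface. Probes for these genes were taken from the array by their annotation: a probe was a member when its description named a claudin, occludin, tight junction protein, cadherin, catenin, desmoplakin, desmocollin, desmoglein, gap junction protein, keratin or mucin. The keywords matched 91 of the 15208 probes on the array. Of these, 70 passed the scanner software's test against background on 3 or more of the 15 arrays and were kept as members, among 13164 probes tested in all. The 70 members carried 67 distinct labels, because DSC2, TJP1 and TCHP each had 2 probes, and 7 were named through RefSeq alone. They comprised 16 tight junction probes, 12 keratins, 11 cadherins, 7 gap junction proteins, 6 protocadherins, 3 catenins, 3 desmosome probes, 3 mucins and 9 probes whose description holds a keyword inside another name. The 21 matched probes left below the filter were keratins 3, 10, 25, 27, 72, 80 and 85, the desmosomal cadherins DSC1, DSC3 (2 probes) and DSG1, the mucins MUC2 and MUC15, submaxillary mucin 2, 1 gall-bladder mucin probe, CLDN2, CDH6, CDH10, CDHR1, CD164L2 and TMEM225. One tight junction member, described as claudin 12, is GTPBP10 in RefSeq.

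The samples were caruncular endometrium from the uterine horn of Japanese Black cows, killed on day 15 or 18 with the day of artificial insemination counted as day 1. Non-pregnant cows made up the groups NP15 (n = 4) and NP18 (n = 4), and pregnant cows the groups P15 (n = 3) and P18 (n = 4). Pregnancy was judged by eye from the presence of trophoblast in the opened uterus, and no treatment is stated for any cow. Each array held 1 sample labelled with Cy3, so p-values measure the spread between these arrays within a group.

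Tight junctions seal neighbouring epithelial cells through claudins and occludin, adherens junctions join them through cadherins bound to catenins, and desmosomes anchor their keratin filaments. Gap junctions are channels made of connexins that let small molecules pass between cells. In ruminants the trophoblast elongates and attaches to the luminal epithelium without eroding it at first, and a coat of the mucin MUC1 covers that epithelium.

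Values are given as normalized signal, the background-subtracted probe signal divided by the median signal of its own array. A member was called when the adjusted p from limma was under 0.05 and the fitted fold change was over 2. Where only a lower bound on the fold is given, the call still rests on the fitted value. The median signal ran from 315 to 686 on day 15 and from 407 to 838 on day 18, and the share of probes well above background ran from 78.4% to 88.3% on day 15 and from 65.6% to 76.8% on day 18. The lowest signal still well above background was 0.0196 to 0.0519 of the array median on day 15, and 0.0660 to 0.180 of it on day 18. Of the 70 members, 47 were well above background in every array, while 2 were so in no NP15 array, 0 in no P15 array, 6 in no NP18 array and 9 in no P18 array. NP15 was scanned over 3 days and P15, NP18 and P18 on 1 day each. Since different groups were never scanned together and never shared a slide, neither scan day nor slide can be told apart from group.

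Trophoblast RNA was measured beside the members, since trophoblast is itself an epithelium. The summed signal of 12 trophoblast markers was 4.57 to 11.3 in NP15, 8.10 to 18.4 in P15 and 8.47 to 12.3 in NP18. In P18 it was 105, 329, 357 and 681 in replicates 1 to 4. In P18 replicate 1 nearly all of that sum was PLAC8, at 104, and the trophoblast genes IFNT2, TKDP1, PAG2, PAG8 and PAG11 were not well above background, although they were in the other 3 P18 arrays. TKDP4 was well above background there, at 0.271, against at most 0.0849 in NP18 and 45.0 to 307 in the other P18 arrays. The summed signal of 13 further epithelial markers, such as EPCAM, was 176 to 528 in NP15, 156 to 249 in P15, 231 to 557 in NP18 and 317 to 412 in P18. In whole tissue, fewer cells of a type and less RNA per cell cannot be told apart.

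On day 15, 1 of the 70 members was called between pregnant and non-pregnant cows, against 0.798% of all probes. The hair follicle keratin KRT75 was that member. It was lower in P15, where 0.448% of all probes were called lower, and no member was called higher, where 0.349% of all probes were. By limma, 12 members had an unadjusted p under 0.05, as did 1956 of the 13164 probes. The median log2 fold change was -0.18 over the members and -0.06 over all probes.

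On day 18, 8 members were called between pregnant and non-pregnant cows, against 5.75% of all probes. Higher in P18 were CLDN16, CLDN18, GJB1, GJB6, KRT15, the MUC20-like mucin and TIMD4, 7 members, against 3.65% of all probes called higher. CLDN16 and CLDN18 count among these 7 by their fitted folds, since neither was well above background in any NP18 array. Lower in P18 was CDH13 alone, against 2.1% of all probes called lower. The calls were 6 higher and 2 lower after quantile normalization, and 6 higher and 3 lower after normexp background correction. They were 8 higher and 9 lower with array weights, 9 higher and 7 lower by the methods' t-test without adjustment, and 6 higher and 5 lower without NP18 replicate 1. Over all probes the calls went from 757 to 825, 689, 1373, 1157 and 1043, in that order. The median log2 fold change was 0.03 over the members and 0.07 over all probes, and -0.05 over the members after scaling by the 75th percentile. The called members lay in different families: 2 of 16 tight junction probes, 2 of 7 gap junction probes, 1 of 12 keratins, 1 of 3 mucins, 1 of 11 cadherins and 1 of the 9 probes with a keyword inside another name.

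**Figure D1:**
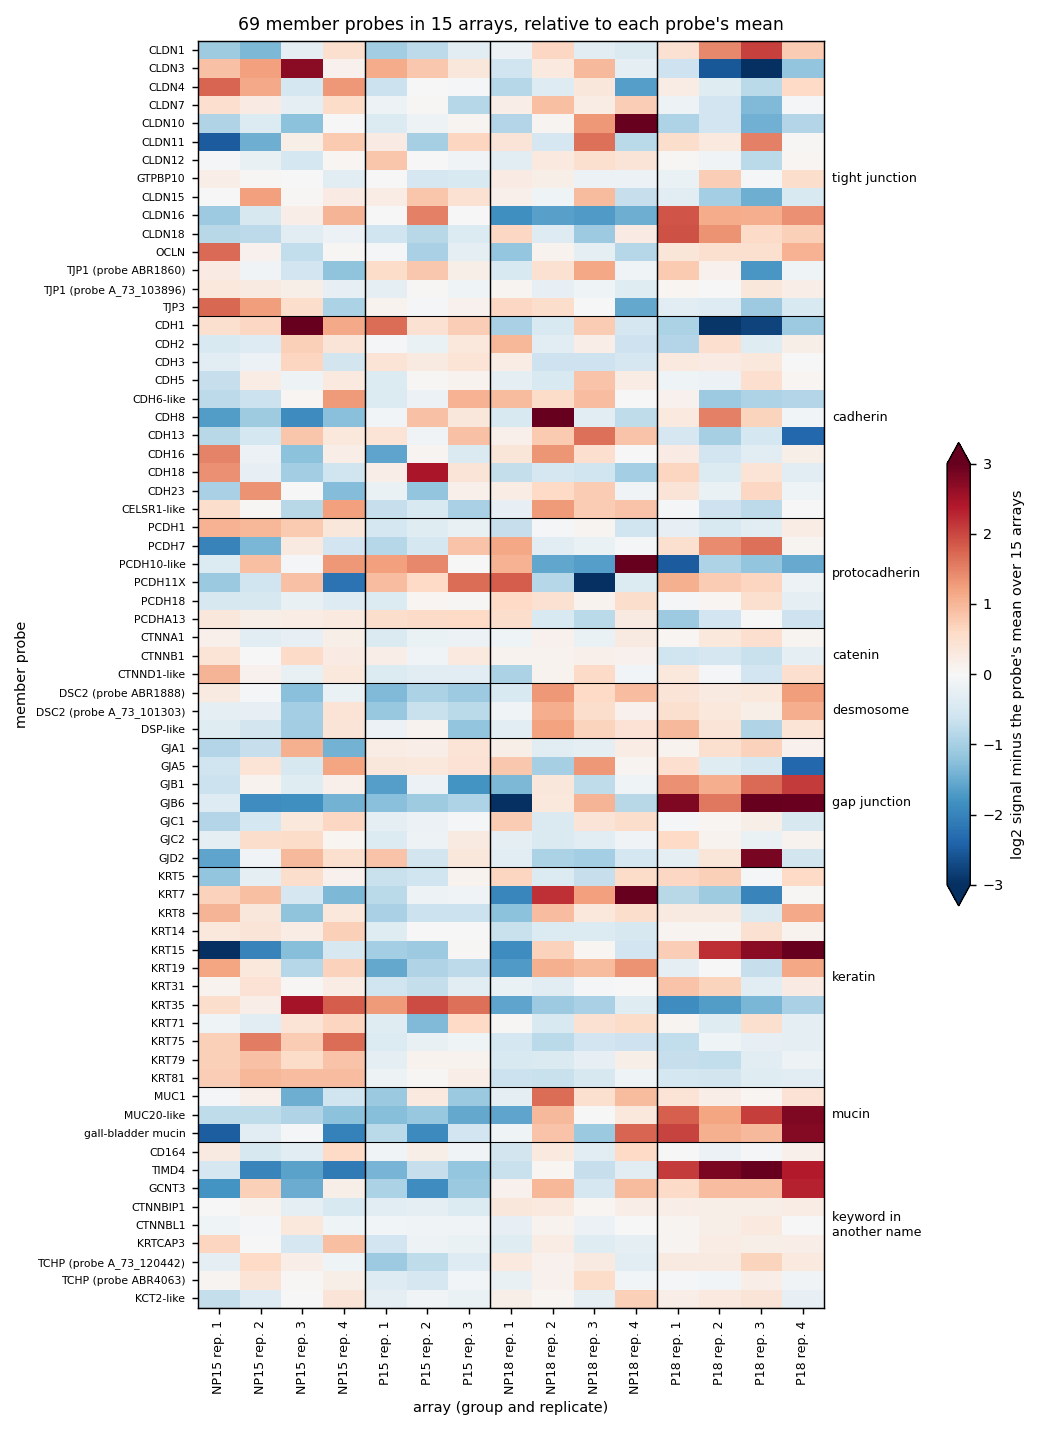
Normalized signal of 69 members (lines, grouped by family) in the 15 arrays (columns, grouped as NP15, P15, NP18 and P18), drawn as log2 value minus the member's mean over all arrays, with a colour scale from -3 to 3. TIMD4, GJB6, KRT15 and the MUC20-like mucin are red in P18, KRT15 only weakly so in replicate 1. CDH1 and CLDN3 are strong blue in P18 replicates 2 and 3.

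From day 15 to day 18, 5 members were called in non-pregnant cows, against 7.16% of all probes. All 5 were lower on day 18, where 4.26% of all probes were called lower, and no member was called higher, where 2.89% of all probes were. In pregnant cows 18 members were called, against 11.9% of all probes. Of these, 12 were higher on day 18, against 7.58% of all probes called higher, and 6 were lower, against 4.31% of all probes called lower. After normexp correction the calls were 2 higher and 4 lower in non-pregnant cows, and 10 higher and 3 lower in pregnant cows. Without NP18 replicate 1 they were 5 higher and 4 lower in non-pregnant cows. Over all probes, the calls in non-pregnant cows went from 942 to 846 with normexp and to 1565 without NP18 replicate 1. In pregnant cows the calls over all probes went from 1566 to 1123 with normexp. The comparisons between days share arrays with the comparisons between pregnant and non-pregnant cows and are not independent of them. The difference between pregnant and non-pregnant cows was unequal on the 2 days, tested as an interaction, for 5 members against 2.72% of all probes. All 5 interactions were positive, where 2.07% of all probes were called in that direction, and no member was called in the negative direction, where 0.653% of all probes were. With scan day as a random block in limma, no member was called in any of these comparisons except KRT75 and KRT81 between the days in non-pregnant cows. Under that block the calls over all probes went from 942 to 54 in non-pregnant cows. They went from 1566 to 0 in pregnant cows and from 358 to 0 for the interaction.

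Tight junction members were led on day 18 by CLDN16, which forms paracellular pores for magnesium in the kidney, and CLDN18, a claudin of stomach and lung epithelium. The probes that carry these calls are shown 5′ to 3′ in lower case, the first 30 of 60 bases for CLDN16 and the whole probe for CLDN18, because no other member shares a run of more than 14 bases with them.
CLDN16: gaggaaatatttcagaagattatggaaata
CLDN18: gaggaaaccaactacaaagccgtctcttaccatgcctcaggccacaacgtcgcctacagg

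The normalized signal of CLDN16 was 0.221, 0.128, 0.127 and 0.155 in P18 and 0.0166, 0.0193, 0.0182 and 0.0216 in NP18. It was 0.0281, 0.0424, 0.0682 and 0.121 in NP15 and 0.0586, 0.168 and 0.0604 in P15. All P18 arrays lay above all NP18 arrays, whereas the day 15 groups overlapped. CLDN16 was well above background in 3 of 4 P18 arrays and in no NP18 array, so the fold change between them is not estimated. Against the lowest signal well above background in NP18, the P18 mean was 1.87-fold higher. That figure is under 2-fold and is no strict lower bound, since P18 replicate 3 was itself not well above background. Both the call and its adjusted p (limma adjusted p = 0.000611) rest on fitted NP18 values below background. Between NP18 and NP15 the gene passed the test in the lower direction (limma adjusted p = 0.0287), but with no NP18 array above background no fold is given. Without NP15 replicate 3 or 4, or NP18 replicate 2, 3 or 4, that second call was lost (limma adjusted p = 0.0535 to 0.0627). The interaction of pregnancy and day was positive (limma adjusted p = 0.0486), and for the same reason its size is not given. It lost its call without any of 13 of the 15 arrays, the exceptions being NP15 replicate 1 and P15 replicate 2 (limma adjusted p = 0.0576 to 0.146).

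CLDN18 gave a normalized signal of 0.146, 0.0980, 0.0581 and 0.0642 in P18 against 0.0599, 0.0296, 0.0182 and 0.0459 in NP18. In NP15 the values were 0.0219, 0.0223, 0.0314 and 0.0345, and in P15 they were 0.0255, 0.0218 and 0.0292. The P18 and NP18 arrays overlapped, while P18 lay wholly above P15. With 1 of 4 P18 arrays and no NP18 array well above background, no lower bound on the fold of CLDN18 can be given. Its day 18 call (limma adjusted p = 0.0455) rests on fitted values. Those are below background in every NP18 array and in every P18 array but replicate 1. That call was lost without any of NP18 replicates 2, 3 and 4 or P18 replicates 1, 2, 3 and 4 (limma adjusted p = 0.0508 to 0.133). It was lost too with 75th percentile scaling, quantile normalization, the authors' table, normexp, no filter on dim probes, slide or scan day as a block, the replicate block, the 2 groups compared alone and the methods' t-test after Benjamini-Hochberg adjustment. Against P15, with 1 of 4 P18 and 2 of 3 P15 arrays well above background, the fitted log2 difference was 1.76 (SE 0.39, limma adjusted p = 0.0104), and after normexp correction it was 0.91, under 2-fold and not called.

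CLDN1 and CLDN3, both barrier-forming claudins, moved in opposite directions between the days of pregnancy. CLDN1, the neighbour of CLDN16 in the RefSeq annotation, had a normalized signal of 2.85, 3.41 and 4.74 in P15 and of 8.05, 16, 24.5 and 10.1 in P18. CLDN3 had 64.1, 51.5 and 37.1 in P15 and 19.2, 5.10, 3.12 and 13.1 in P18. In neither case did the P15 and P18 arrays overlap. CLDN1 rose 3.72-fold (log2 change 1.90, SE 0.45, limma adjusted p = 0.0137) and CLDN3 fell 6.25-fold (log2 change -2.64, SE 0.64, limma adjusted p = 0.0145). Both calls were lost without P15 replicate 1 (1.73, limma adjusted p = 0.0655, and -2.46, limma adjusted p = 0.0652) or P15 replicate 2 (1.86, limma adjusted p = 0.0504, and -2.62, limma adjusted p = 0.0507).

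Non-pregnant cows on day 18 had a CLDN1 signal of 5.20, 9.0, 4.77 and 4.39 and a CLDN3 signal of 19.5, 36.3, 58 and 24.6. Every P18 array was below every NP18 array for CLDN3, by a log2 difference of -2.0 that missed the threshold (limma adjusted p = 0.0572). For CLDN1 the groups overlapped, with a log2 difference of 1.25 (limma adjusted p = 0.0872). On day 15 neither gene was called (CLDN1 -0.16, limma adjusted p = 0.910; CLDN3 -0.48, limma adjusted p = 0.775).

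CLDN15, a channel-forming claudin, was also lower in P18 than in P15, but was well above background in no P18 array. It was 0.119, 0.181 and 0.139 in P15 and 0.0801, 0.0496, 0.0367 and 0.0739 in P18, at least 1.13-fold lower (limma adjusted p = 0.0375). The bound is under 2-fold, and the call rests on the fitted value. The groups did not overlap. After normexp background correction the call was lost (limma adjusted p = 0.465). It was lost too without any of P15 replicates 1, 2 and 3 or P18 replicates 2 and 3 (limma adjusted p = 0.0773 to 0.130).

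Other tight junction genes of the core epithelial panel passed no test between pregnant and non-pregnant cows. Occludin (OCLN) was 1.81, 1.97, 1.97 and 2.93 in P18 against 0.636, 1.52, 1.15 and 0.788 in NP18. The 2 groups did not overlap, yet the log2 difference of 1.14 did not pass (limma adjusted p = 0.126). CLDN7, a basolateral claudin, was 5.97, 4.45, 2.63 and 6.49 in P18 against 7.55, 12.3, 7.71 and 11 in NP18, again without overlap (log2 difference -1.03, limma adjusted p = 0.0642).

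CLDN4, the neighbour of CLDN3 in RefSeq, was 3.18, 2.07, 0.657 and 2.33 in NP15, 0.604, 0.959 and 0.913 in P15, 0.525, 0.721, 1.20 and 0.303 in NP18 and 1.1, 0.737, 0.545 and 1.43 in P18. The groups overlapped on both days. CLDN4 gave log2 differences of -1.14 on day 15 and 0.55 on day 18 (limma adjusted p = 0.333 and 0.527). Of the 2 probes of the scaffold gene TJP1, A_73_103896 ranged from 23.8 to 38.8 over the 15 arrays and ABR1860 from 0.0673 to 0.507. They pointed in opposite directions on both days, at -0.25 and 0.92 on day 15 and at 0.31 and -0.50 on day 18 (limma adjusted p = 0.336 to 0.608). CLDN10 reached 96.4 in NP18 replicate 4 alone, where all other arrays lay between 0.433 and 2.92, and its log2 difference on day 18 was -2.68 (limma adjusted p = 0.145). KRT7, a keratin of simple epithelia, was also highest in that array.

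**Figure D2:**
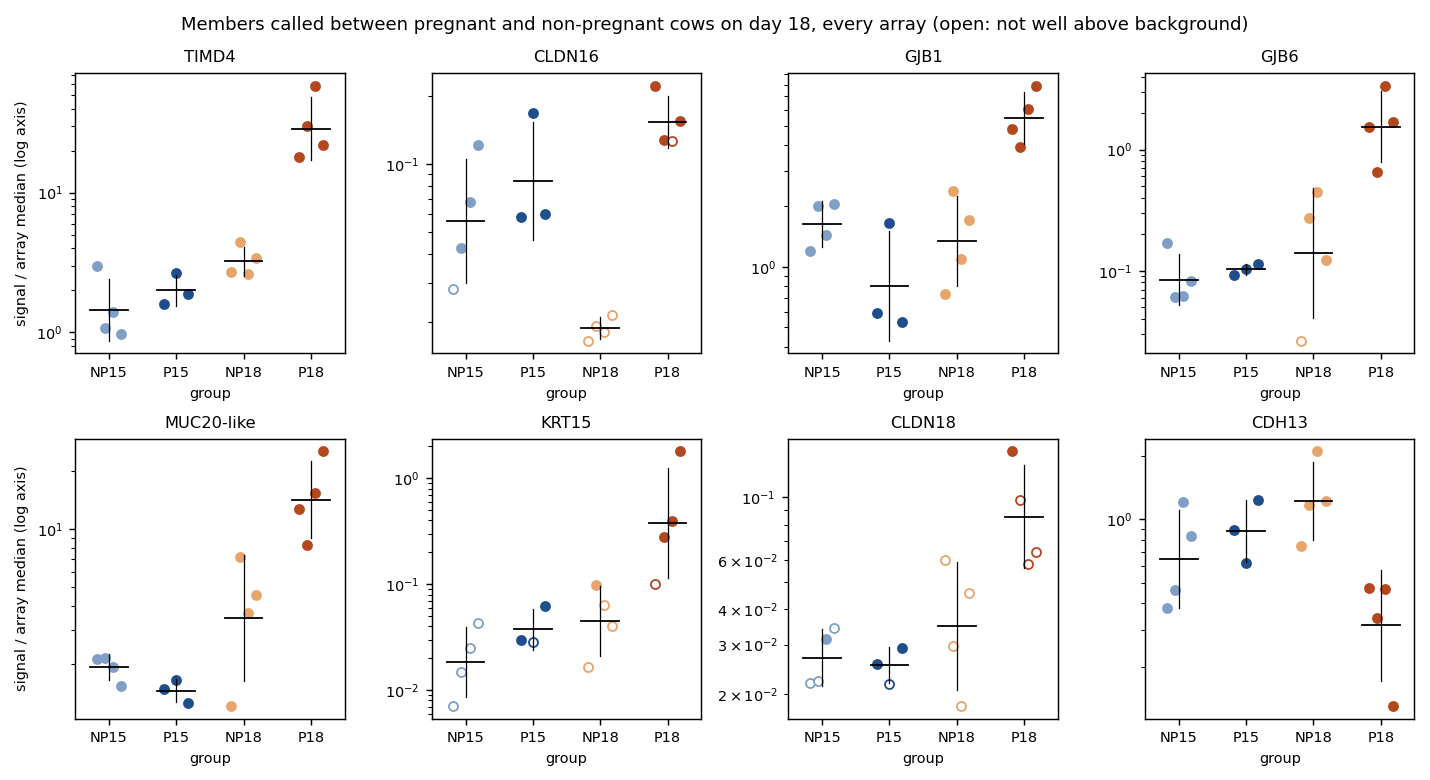
Normalized signal (array median = 1, logarithmic axis) of the 8 members called between P18 and NP18, 1 panel each, with a point per array in NP15, P15, NP18 and P18. Open points were not well above background, the line is the geometric mean and the bar is 1 SD of the log2 values either side. TIMD4, CLDN16, GJB1, GJB6, KRT15 and the MUC20-like mucin have all P18 arrays above all NP18 arrays, CLDN18 overlaps, and CDH13 has all P18 arrays below.

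Among the adherens junction genes, CDH13 was the cadherin called on day 18 and CDH1 the cadherin called between the days of pregnancy. CDH13, or T-cadherin, lacks a cytoplasmic tail, is tied to the membrane by a lipid anchor and is well known in endothelial and smooth muscle cells. Its normalized signal was 0.474, 0.340, 0.465 and 0.131 in P18 against 0.747, 1.17, 2.10 and 1.22 in NP18. On day 15 it was 0.379, 0.465, 1.21 and 0.837 in NP15 and 0.888, 0.621 and 1.23 in P15. The day 18 groups did not overlap, whereas the day 15 groups did.

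CDH13 was 3.89-fold lower in P18 than in NP18 (log2 difference -1.96, SE 0.46, limma adjusted p = 0.0217). The call was lost without NP18 replicate 3 (-1.70, limma adjusted p = 0.0725), P18 replicate 2 (-2.0, limma adjusted p = 0.0516) or P18 replicate 4 (-1.54, limma adjusted p = 0.0519). In the same comparison 4 of 13 endothelial markers and 3 of 8 smooth muscle markers were called lower, against 2.1% of all probes. Among them were PECAM1 (-1.54) and ACTA2 (-3.90), and 0 of either list were called higher. The endothelial cadherin CDH5 is itself a member, so it was left out of the 13. It was not called on day 18, and its groups overlapped, at 0.111 to 0.177 in P18 and 0.0909 to 0.224 in NP18. P18 replicates 1 and 3 and NP18 replicate 2 were not well above background for CDH5. The summed endothelial signal was 53.3 to 83.5 in P18 and 63.6 to 132 in NP18, and the summed smooth muscle signal was 65.9 to 164 in P18 and 110 to 469 in NP18. Their part in the CDH13 result was not tested.

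E-cadherin (CDH1) is the classical cadherin of epithelia and a core marker of the module. Its probe is printed whole, since the levels of this marker rest on 1 probe.
CDH1: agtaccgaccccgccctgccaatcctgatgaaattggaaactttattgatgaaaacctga
The normalized signal of CDH1 was 7.50, 8.17, 76.0 and 11.7 in NP15, and 17.2, 7.30 and 8.87 in P15. On day 18 it was 2.75, 3.91, 9.03 and 3.81 in NP18 and 2.77, 0.712, 0.778 and 2.5 in P18. NP15 replicate 3 stood far above the other arrays of its group, and P18 lay wholly below P15.

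CDH1 fell 7.40-fold from P15 to P18 (log2 change -2.89, SE 0.74, limma adjusted p = 0.0192). Without P15 replicate 1 the call was lost (-2.52, limma adjusted p = 0.0887), as it was without P15 replicate 3 (-3.0, limma adjusted p = 0.0563), P18 replicate 2 (-2.56, limma adjusted p = 0.0544) and P18 replicate 3 (-2.60, limma adjusted p = 0.0576). The change in non-pregnant cows was -1.80 and was not called (limma adjusted p = 0.100), and the interaction was -1.09 (limma adjusted p = 0.597). Between pregnant and non-pregnant cows CDH1 was not called on day 15 (-0.56, limma adjusted p = 0.775) or on day 18 (-1.65, limma adjusted p = 0.161).

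The catenins link cadherins to actin. CTNNA1 (alpha-catenin) was at 74.7 to 142 in all 15 arrays, with log2 differences of -0.21 on day 15 and 0.22 on day 18 (limma adjusted p = 0.688 and 0.522). CTNNB1 (beta-catenin) was 4.97, 5.30, 4.69 and 6.08 in P18 and 8.01, 8.04, 8.30 and 8.26 in NP18. Those groups did not overlap and the adjusted p passed, but the difference was under 2-fold (log2 difference -0.64, limma adjusted p = 0.0444).

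Among the 6 protocadherins, PCDH1 and PCDHA13 were called, both between days. PCDH1, a protocadherin of airway epithelium, had a normalized signal of 2.34, 2.29, 1.97 and 1.44 in NP15 and 0.704, 1.11, 1.21 and 0.756 in NP18. The groups did not overlap, and PCDH1 fell 2.14-fold (log2 change -1.1, SE 0.24, limma adjusted p = 0.0123). Without NP18 replicate 1 the adjusted p still passed (0.0196, limma) but the log2 change of -0.97 was under 2-fold. In P15 PCDH1 was 0.793, 0.884 and 0.984, below every NP15 array (log2 difference -1.16, limma adjusted p = 0.0502).

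PCDHA13, one of the clustered protocadherins best known in neurons, was 1.07, 1.1 and 1.12 in P15 and 0.349, 0.497, 0.742 and 0.484 in P18. It fell by 1.13 on the log2 scale (SE 0.31, limma adjusted p = 0.0243), and the call was lost without P15 replicate 1, 2 or 3 or P18 replicate 1 or 2 (-0.96 to -1.15, limma adjusted p = 0.0536 to 0.0792).

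The desmosomal cadherin desmocollin 2 (DSC2) was measured by 2 probes, which moved together. The first, ABR1888, gave 2.81, 3.61 and 3.31 in P15 and 9.12, 8.50, 8.73 and 16.8 in P18. The second, A_73_101303, gave 3.78, 5.31 and 4.76 in P15 and 11.8, 10.4, 9.52 and 17.9 in P18. For both probes all P18 arrays lay above all P15 arrays. The log2 increases were 1.68 (SE 0.42, limma adjusted p = 0.0169) and 1.39 (SE 0.35, limma adjusted p = 0.0172). Without P15 replicate 1 they were 1.58 (limma adjusted p = 0.0721) and 1.26 (limma adjusted p = 0.0798), and without P15 replicate 3 they were 1.70 (limma adjusted p = 0.0570) and 1.42 (limma adjusted p = 0.0566).

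In non-pregnant cows DSC2 ranged from 2.91 to 8.44 in NP15 and from 5.06 to 17.3 in NP18 by the first probe, with overlap between the days. Pregnant and non-pregnant cows were not called apart by either probe (-0.81 and -0.59 on day 15, -0.03 and 0.11 on day 18). The probe described as similar to desmoplakin, the protein that ties desmosomes to keratin filaments, was 0.302 to 1.58 over all arrays and was called in no comparison.

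Gap junction genes gave 2 of 7 calls on day 18, both connexins and both higher in pregnancy. GJB1 encodes connexin 32, a channel of liver and Schwann cells, and GJB6 encodes connexin 30, a channel of inner ear and skin. Bases 31 to 60 of the GJB1 probe and the whole GJB6 probe are shown, as both calls on day 18 held without each array in turn.
GJB1: cctgaaatgttacacATTAAAcaggatttt
GJB6: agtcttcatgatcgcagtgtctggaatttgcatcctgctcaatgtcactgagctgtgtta
The capitals mark ATTAAA, a variant of the polyadenylation signal. It or AATAAA, on the strand printed, was present in 20 of the 70 member probes (28.6%) and in 14.9% of all 15208 probes.

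The normalized signal of GJB1 was 4.84, 3.93, 6.04 and 7.89 in P18 and 0.730, 2.37, 1.09 and 1.71 in NP18. On day 15 it was 1.19, 1.99, 1.44 and 2.06 in NP15 and 0.590, 1.66 and 0.535 in P15. Every P18 array exceeded every other array, while P15 and NP15 overlapped with P15 lower on average. GJB1 was 4.10-fold higher in P18 than in NP18 (log2 difference 2.04, SE 0.41, limma adjusted p = 0.00909), against a log2 difference of -1.02 on day 15 (limma adjusted p = 0.298).

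The difference between those differences was 3.05 for GJB1 (SE 0.60, limma adjusted p = 0.0189), and was lost without P15 replicate 1 (2.83, limma adjusted p = 0.0711) or P15 replicate 3 (2.76, limma adjusted p = 0.0534). From P15 to P18 the gene rose 6.81-fold (log2 change 2.77, SE 0.44, limma adjusted p = 0.00199). In NP18 against NP15 the change was -0.29 (limma adjusted p = 0.684).

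GJB6 was 1.52, 0.657, 3.35 and 1.71 in P18 and 0.0265, 0.271, 0.446 and 0.122 in NP18, with 1 NP18 array, replicate 1, not well above background. It was 0.168, 0.0605, 0.0616 and 0.0817 in NP15 and 0.0924, 0.104 and 0.114 in P15. All P18 arrays lay above every other array. GJB6 was 11-fold higher in P18 than in NP18 (log2 difference 3.46, SE 0.70, limma adjusted p = 0.00969) and 15.0-fold higher than in P15 (log2 change 3.91, SE 0.76, limma adjusted p = 0.00553). On day 15 the difference was 0.29 (limma adjusted p = 0.903), and the interaction of 3.17 was not called (limma adjusted p = 0.108).

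GJA1, connexin 43, a gap junction protein of endometrial stroma, was not called in any comparison. It was 134, 154, 519 and 93.2 in NP15, 288, 283 and 327 in P15, 279, 195, 202 and 288 in NP18, and 267, 347, 399.6 and 269.7 in P18. NP15 replicate 3 was again the highest array. The log2 differences between pregnant and non-pregnant cows were 0.75 on day 15 and 0.42 on day 18 (limma adjusted p = 0.434 and 0.559). The other 4 gap junction members were called in no comparison.

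The 12 keratins held those of simple epithelium, KRT7, KRT8 and KRT19, which were called in no comparison, and keratins of hair and epidermis, to which all the keratin calls belonged. In RefSeq the type I members KRT14, KRT15, KRT19, KRT31 and KRT35 lie in 1 cluster and the type II members KRT5, KRT7, KRT8, KRT71, KRT75, KRT79 and KRT81 in another. Probes for KRT35 and KRT75 are printed, whole and for bases 31 to 60, because each rests on 1 probe and both are hair keratins. The capitals again mark ATTAAA.
KRT35: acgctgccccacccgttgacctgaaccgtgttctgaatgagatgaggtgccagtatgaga
KRT75: ccaggaccgtgtctATTAAAtgcatgtata

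KRT75, a keratin of the hair follicle, was 0.312, 0.550, 0.323 and 0.605 in NP15 and 0.144, 0.162 and 0.175 in P15. On day 18 it was 0.133, 0.108, 0.128 and 0.124 in NP18 and 0.114, 0.174, 0.159 and 0.155 in P18, where 2 of 4 arrays were well above background. The NP15 arrays lay above all 11 others. KRT75 was 2.68-fold lower in P15 than in NP15 (log2 difference -1.42, SE 0.26, limma adjusted p = 0.0246) and 3.48-fold lower in NP18 than in NP15 (log2 change -1.80, SE 0.24, limma adjusted p = 0.000963).

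The day 15 call of KRT75 was lost without NP15 replicate 2 (-1.30, limma adjusted p = 0.0881), P15 replicate 1 (-1.35, limma adjusted p = 0.174), P15 replicate 2 (-1.43, limma adjusted p = 0.103) or P15 replicate 3 (-1.49, limma adjusted p = 0.0877). The day 18 difference was 0.27 (limma adjusted p = 0.519), and the interaction was 1.69 (SE 0.35, limma adjusted p = 0.0237). That interaction was lost without P15 replicate 1 (1.62, limma adjusted p = 0.0815), P15 replicate 2 (1.71, limma adjusted p = 0.0572) or P18 replicate 2 (1.62, limma adjusted p = 0.0542).

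KRT81 and KRT35 are keratins of the hair shaft and were lower on day 18. KRT81 was 5.81, 6.94, 6.59 and 6.61 in NP15, 3.14, 3.57 and 4.00 in P15, 2.25, 2.21, 2.52 and 3.22 in NP18 and 2.43, 2.39, 2.70 and 2.82 in P18. KRT35 was 3.12, 2.52, 12.3 and 7.63 in NP15, 5.28, 8.45 and 6.91 in P15, 0.729, 1.02, 1.1 and 1.69 in NP18 and 0.604, 0.679, 0.839 and 1.1 in P18. For KRT35 the 2 days did not overlap, whether or not the cows were pregnant.

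In non-pregnant cows KRT81 fell 2.57-fold (log2 change -1.36, SE 0.18, limma adjusted p = 0.000874) and KRT35 fell 4.80-fold (log2 change -2.26, SE 0.43, limma adjusted p = 0.00661). In pregnant cows KRT35 fell 8.60-fold (log2 change -3.10, SE 0.47, limma adjusted p = 0.00149), while KRT81 changed by -0.46 (limma adjusted p = 0.109). These calls of KRT75, KRT81 and KRT35 between the days held without each array in turn.

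KRT14 and KRT79, keratins of basal epidermis and sebaceous glands, were lower in NP18 than in NP15 by less than 2-fold (log2 changes -0.91 and -0.98, limma adjusted p = 0.00838 and 0.0109). KRT14 was 0.831, 0.874, 0.772 and 1.09 in NP15, 0.516, 0.661 and 0.659 in P15, 0.419, 0.499, 0.502 and 0.473 in NP18 and 0.699, 0.704, 0.915 and 0.718 in P18. Its pregnant arrays lay wholly below the non-pregnant ones on day 15 and wholly above them on day 18. The log2 difference was -0.54 on day 15 (limma adjusted p = 0.217) and 0.68 on day 18 (limma adjusted p = 0.0385). The interaction was called, at 1.22 (SE 0.27, limma adjusted p = 0.0295). It was lost without NP15 replicate 2, P15 replicate 1, 2 or 3, NP18 replicate 3 or P18 replicate 2 or 3, at 1.1 to 1.28 (limma adjusted p = 0.0512 to 0.107).

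**Figure D3:**
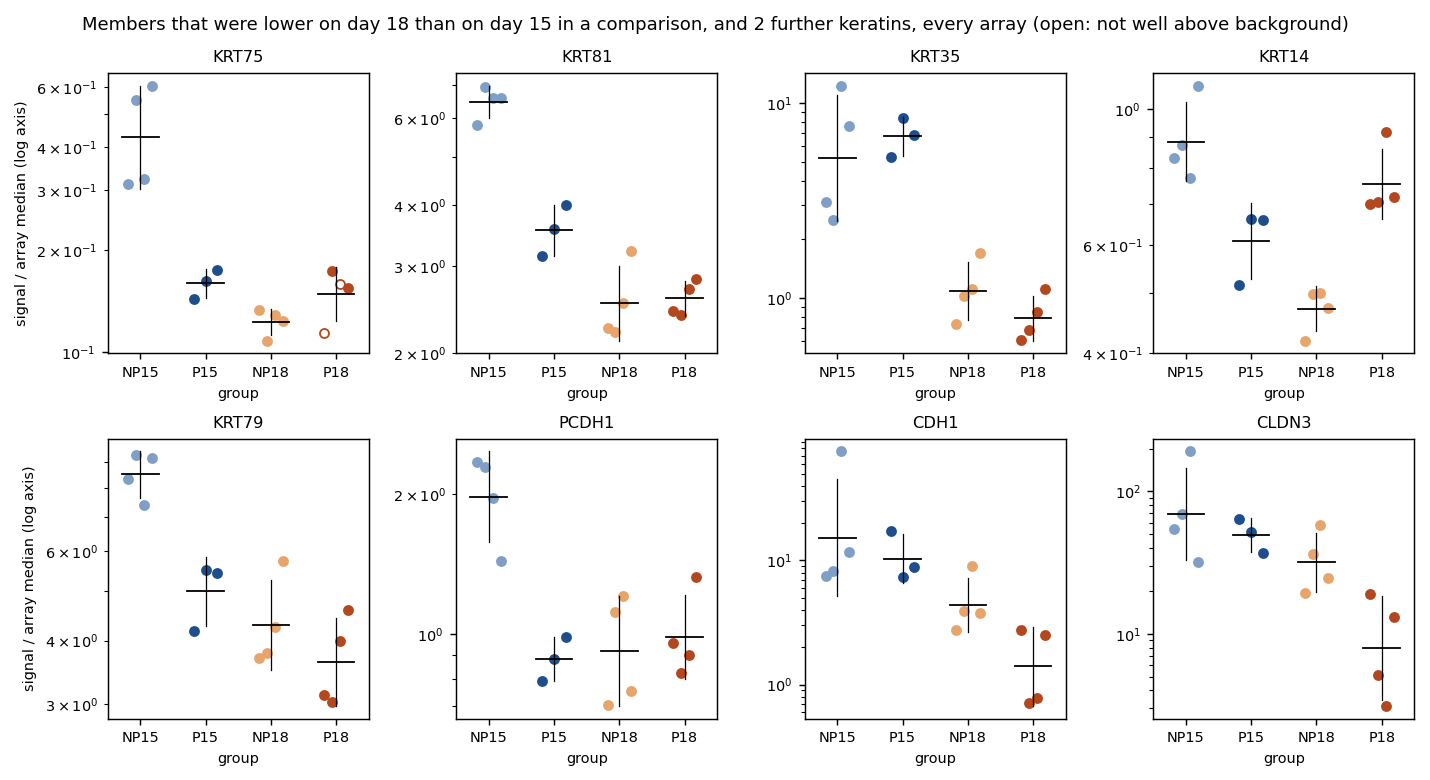
Normalized signal (array median = 1, logarithmic axis) of KRT75, KRT81, KRT35, KRT14, KRT79, PCDH1, CDH1 and CLDN3, 1 panel each, with a point per array in NP15, P15, NP18 and P18. Open points were not well above background, the line is the geometric mean and the bar is 1 SD of the log2 values either side. KRT75, KRT81 and PCDH1 are highest in NP15, KRT35 separates the days in both pregnant and non-pregnant cows, and NP15 replicate 3 stands above its group for CDH1 and CLDN3.

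KRT15, a keratin of basal and progenitor cells, was the keratin called on day 18. It was 0.100, 0.279, 0.394 and 1.80 in P18 and 0.0166, 0.0978, 0.0631 and 0.0401 in NP18, and was well above background in 3 and 1 of the 4 arrays. On day 15 it was 0.00713 to 0.0431 in NP15 and 0.0283 to 0.0620 in P15. The lowest P18 array, replicate 1, lay only just above the highest NP18 array. KRT15 was higher in P18 than in NP18 by 3.06 on the log2 scale (SE 0.78, limma adjusted p = 0.0306) and than in P15 by 3.32 (SE 0.84, limma adjusted p = 0.0176).

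Single arrays decided the KRT15 calls. The first was lost without NP18 replicate 1, 3 or 4 or P18 replicate 2, 3 or 4 (2.30 to 3.22, limma adjusted p = 0.0559 to 0.0776), and the second without P15 replicate 1 (3.16, limma adjusted p = 0.0714) or P15 replicate 2 (3.12, limma adjusted p = 0.0673). KRT19, which lies next to KRT15 in RefSeq, was not called in any comparison.

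KRT7 was 0.235, 0.271, 0.102 and 0.0574 in NP15, 0.0827, 0.130 and 0.135 in P15, 0.0376, 0.667, 0.342 and 1.90 in NP18 and 0.0822, 0.0695, 0.0367 and 0.149 in P18. It was well above background in 1 of 4 P18 arrays, and the day 18 groups overlapped. The log2 differences were -0.29 on day 15 and -2.26 on day 18 (limma adjusted p = 0.921 and 0.145).

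KRT8 and KRT19, filament keratins of simple epithelium, varied several-fold within groups. KRT8 was 101, 62.7, 21.6 and 61.7 in NP15, 25.3, 32.0 and 31.9 in P15, 21.3, 94.3, 61.4 and 71.9 in NP18 and 60.4, 59.5, 36.9 and 109.5 in P18. KRT19 was 40.6, 22.0, 9.87 and 28.7 in NP15, 6.15, 9.5 and 10.3 in P15, 5.46, 37.0, 34.2 and 45.5 in NP18 and 14.5, 18.0, 10.9 and 39.9 in P18. The 5 arrays with the lowest KRT8 were also the 5 with the lowest KRT19 and the lowest DSC2 by probe ABR1888: NP15 replicate 3, NP18 replicate 1 and all 3 P15 arrays. Other members examined shared fewer of them. The second DSC2 probe and MUC1 shared 4, KRTCAP3, CLDN7 and the CELSR1-like probe 3 each, and the desmoplakin-like probe 2.

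The 5 arrays lowest in KRT8 and KRT19 spanned 3 groups, and neither keratin was called between pregnant and non-pregnant cows. KRT8 gave log2 differences of -0.87 on day 15 and 0.18 on day 18 (limma adjusted p = 0.471 and 0.864), and KRT19 gave -1.41 and -0.36 (limma adjusted p = 0.343 and 0.765). From P15 to P18 they gave 1.06 and 1.12 (limma adjusted p = 0.185 and 0.262), and the groups did not overlap for either. In that comparison 5 of the 13 epithelial markers were called higher and 0 lower, against 7.58% and 4.31% of all probes, among them EPCAM (1.45) and the gland transcription factor FOXA2 (3.03), and the median over the 13 was 1.23. On day 15 the median of the same markers between P15 and NP15 was -0.78, with 1 of 13 above 0 and 0 called (limma). From P15 to P18 the core epithelial members CDH1 and CLDN3 went the other way and were called lower. The part of the epithelial marker shift in these falls, and in the rises of DSC2, GJB1, GJB6 and the mucins from P15 to P18, was not tested.

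**Figure D4:**
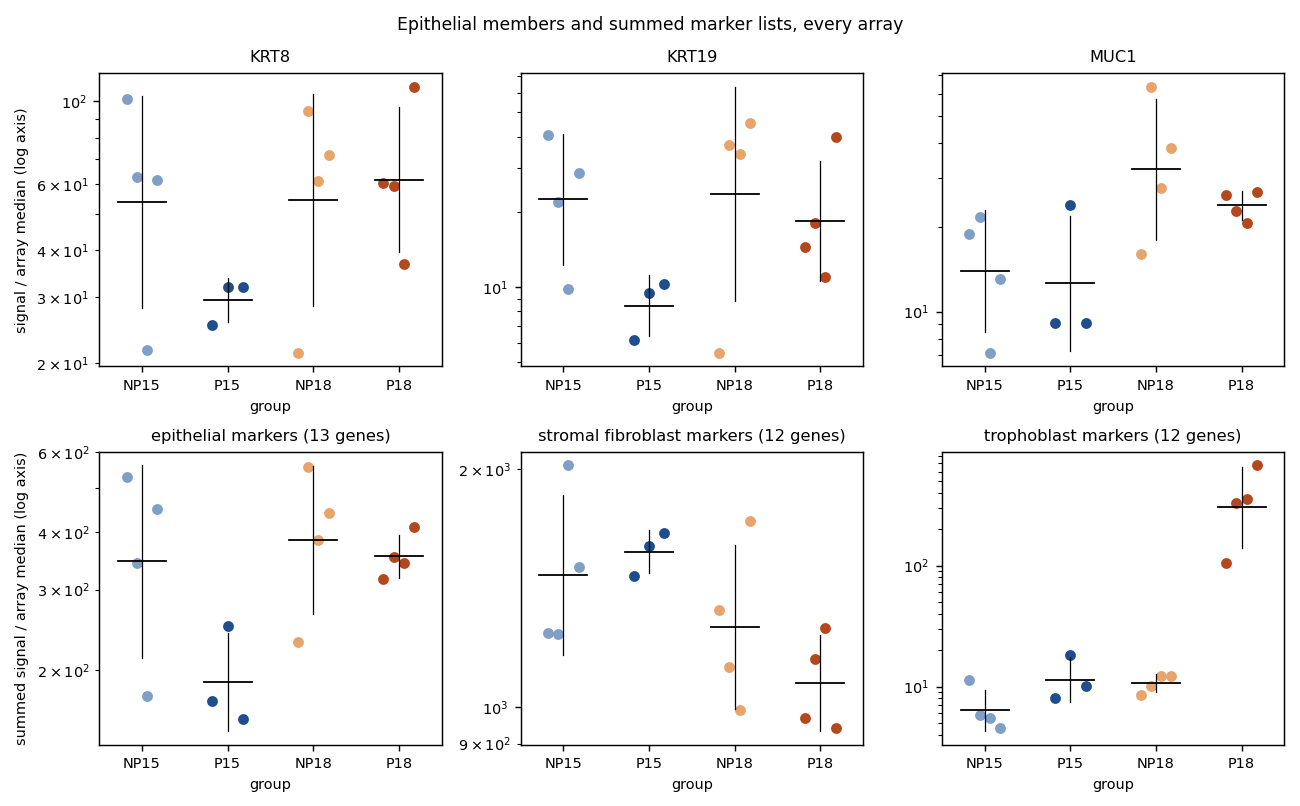
Normalized signal (array median = 1, logarithmic axis) of KRT8, KRT19 and MUC1, and the summed normalized signal of the epithelial, stromal and trophoblast marker lists, with a point per array in NP15, P15, NP18 and P18. NP15 replicate 3, NP18 replicate 1 and the P15 arrays are the 5 lowest for KRT8 and KRT19, and the trophoblast sum is 105 to 681 in P18 against at most 18.4 elsewhere. The 105 is P18 replicate 1, where nearly all of the sum is the single gene PLAC8.

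Mucins were represented by 3 members. MUC1, the transmembrane mucin of the uterine lumen, was 18.9, 21.8, 7.12 and 13.0 in NP15, 9.14, 24.0 and 9.14 in P15, 16, 63.6, 27.5 and 38.3 in NP18 and 26.1, 22.8, 20.6 and 26.7 in P18. Groups overlapped on both days. MUC1 was not called, with log2 differences of -0.15 on day 15 and -0.43 on day 18 (limma adjusted p = 0.919 and 0.589).

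The probe described as similar to MUC20, a membrane mucin of kidney and placenta, was 12.6, 8.29, 15.3 and 25.2 in P18 and 1.21, 7.12, 3.67 and 4.53 in NP18. It was 2.12, 2.15, 1.94 and 1.54 in NP15 and 1.49, 1.65 and 1.26 in P15. All P18 arrays lay above every other array. The MUC20-like probe was 4.09-fold higher in P18 than in NP18 (log2 difference 2.03, SE 0.44, limma adjusted p = 0.0141) and 9.73-fold higher than in P15 (log2 change 3.28, SE 0.48, limma adjusted p = 0.00117). On day 15 its difference was -0.40 (limma adjusted p = 0.744). The gall-bladder mucin probe, named here after its values were seen, was also higher in P18 than in P15 (log2 change 2.81, limma adjusted p = 0.0184), with 2 of 4 and 2 of 3 arrays well above background.

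Of the 9 members whose keyword stands inside another name, TIMD4 had the smallest adjusted p of all members on day 18. It encodes a T-cell immunoglobulin and mucin domain protein that binds phosphatidylserine on dying cells and is best known in macrophages, not a gel-forming or epithelial mucin. The normalized signal of TIMD4 was 18.0, 29.9, 58.1 and 21.9 in P18 and 2.69, 4.45, 2.64 and 3.41 in NP18. On day 15 it was 2.98, 1.08, 1.41 and 0.974 in NP15 and 1.61, 2.65 and 1.88 in P15. All P18 arrays were far above every other array.

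TIMD4 was 8.94-fold higher in P18 than in NP18 (log2 difference 3.16, SE 0.39, limma adjusted p = 0.000246) and 14.4-fold higher than in P15 (log2 change 3.85, SE 0.42, limma adjusted p = 0.000322). On day 15 the difference was 0.47 (limma adjusted p = 0.647), and the interaction was 2.69 (SE 0.58, limma adjusted p = 0.0272). The interaction was lost without P15 replicate 1 (2.53, limma adjusted p = 0.0937), P15 replicate 3 (2.65, limma adjusted p = 0.0613), NP18 replicate 3 (2.60, limma adjusted p = 0.0543) or P18 replicate 2 (2.68, limma adjusted p = 0.0554). The summed signal of 15 leukocyte markers was 22.7 to 147 in P18 and 19.3 to 32.6 in NP18, and was highest, like TIMD4, in P18 replicate 3. In that array 125 of the sum of 147 was the granzyme GZMB. On day 18, 1 of those 15 markers was called higher, against 3.65% of all probes, and their part in the TIMD4 result was not tested.

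GCNT3, an enzyme that branches the O-glycans of mucins, was 0.178, 0.0948 and 0.157 in P15 and 0.509, 0.650, 0.646 and 1.70 in P18. The groups did not overlap, and GCNT3 rose 5.60-fold (log2 change 2.48, SE 0.60, limma adjusted p = 0.0141), a call lost without P15 replicate 2 (2.21, limma adjusted p = 0.0637). TCHP, a keratin filament-binding protein, gave 0.129, 0.164 and 0.210 in P15 and 0.335, 0.331, 0.441 and 0.337 in P18 by probe A_73_120442. That probe rose by 1.12 on the log2 scale (SE 0.26, limma adjusted p = 0.0120), but by 0.95 without P15 replicate 1 (limma adjusted p = 0.0689). The second TCHP probe gave 0.31 and was not called (limma adjusted p = 0.333).

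P18 replicate 1, where IFNT2, TKDP1 and the PAGs were not well above background and TKDP4 was at 0.271, lay above all NP18 arrays for each of the 7 members called higher. For KRT15 it did so only barely, at 0.100 against 0.0978 in NP18 replicate 2, and was not well above background. The normalized signal of P18 replicate 1 was 18.0 for TIMD4, 4.84 for GJB1, 1.52 for GJB6 and 12.6 for the MUC20-like probe. Leaving out that array gave log2 differences between P18 and NP18 of 3.38 for TIMD4, 2.10 for GJB1, 3.46 for GJB6, 2.09 for the MUC20-like probe and 3.69 for KRT15, all still called, as was CLDN16 (limma adjusted p = 0.0026). CLDN18 was lost (limma adjusted p = 0.105). The part of trophoblast RNA in these results was not tested. TIMD4, GJB1, GJB6 and the MUC20-like probe were called without each array in turn. CLDN16 was too, but none of its NP18 values was well above background. In NP18 replicates 1, 2 and 3 they were 0.0166, 0.0193 and 0.0182, the same as those of CDH18. Their spread is therefore not a spread of measured signal, and leaving out arrays cannot test the CLDN16 call. With scan day as a random block, no member was called on day 18 by limma, and 9 had an unadjusted p under 0.05. The calls over all probes in that fit went from 757 to 49. In it the lowest limma adjusted p values among the called members were 0.0580 for TIMD4 and 0.0679 for CLDN16.

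**Figure D5:**
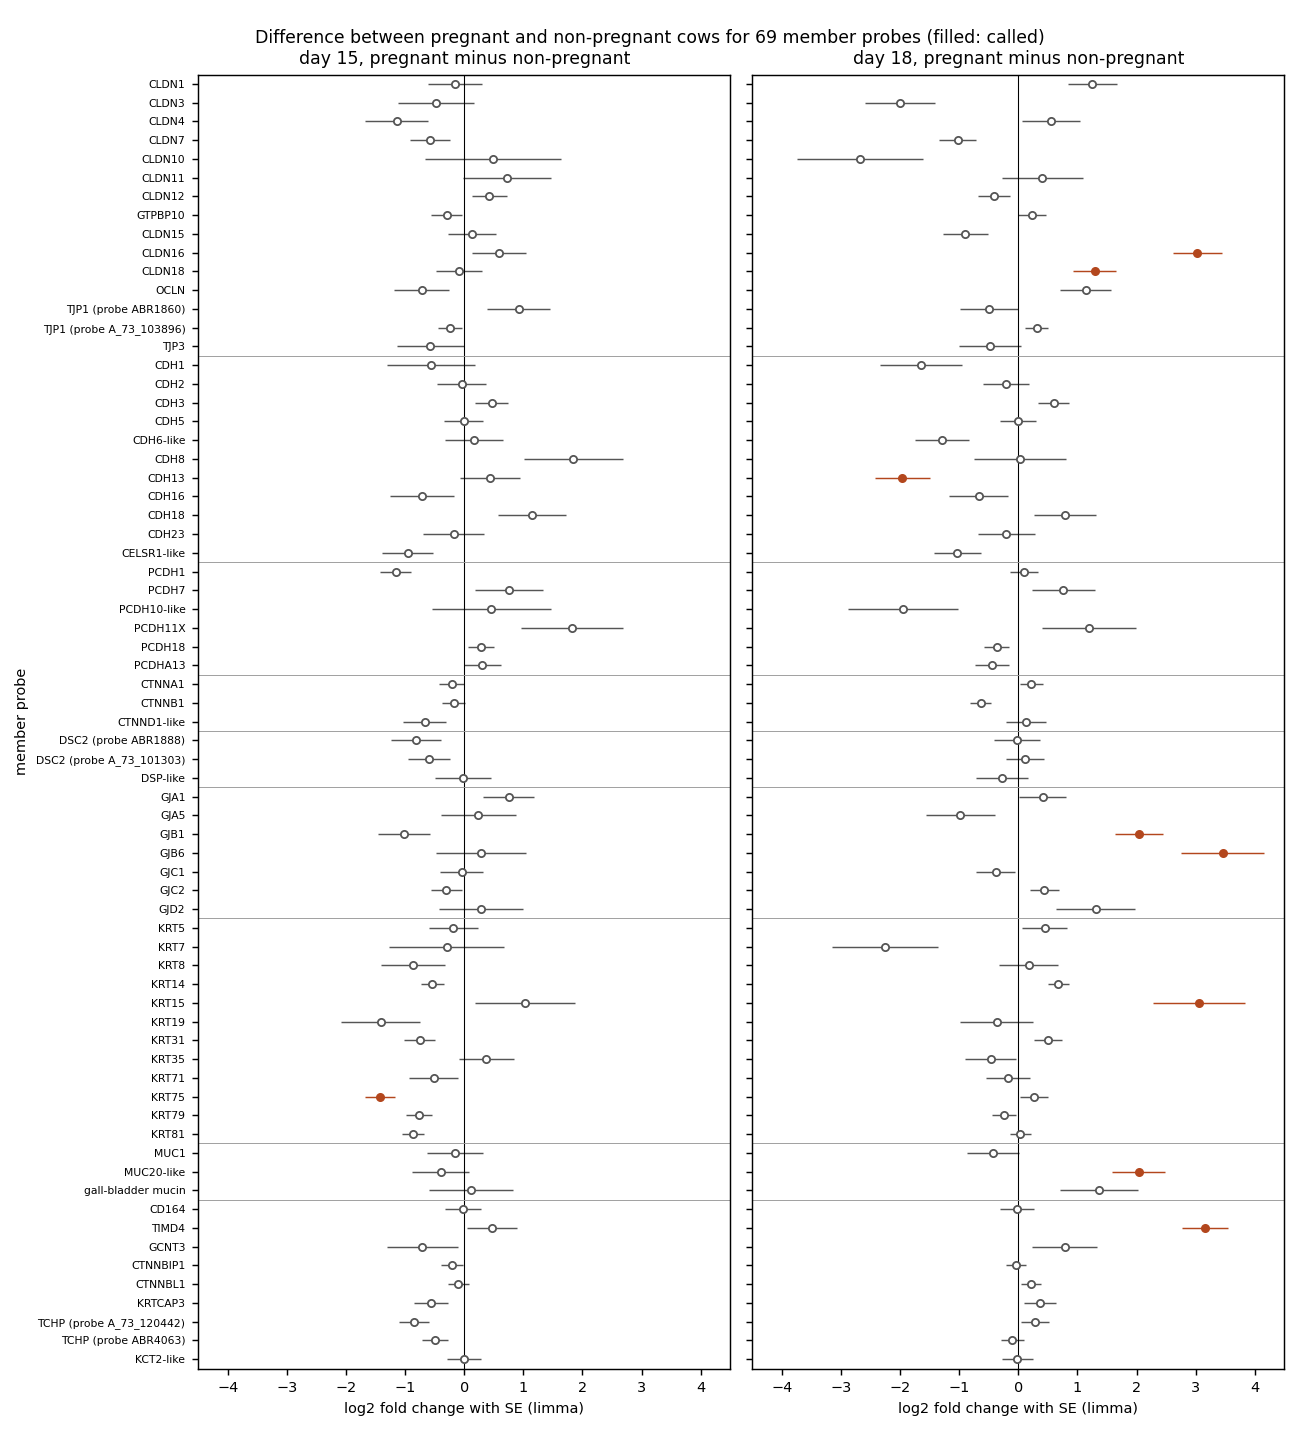
Log2 fold change in pregnancy (P15 over NP15, P18 over NP18) for 69 members, on day 15 and on day 18, with bars of 1 SE from limma and filled points for called members. KRT75 is the filled point on day 15 at -1.42. On day 18 the filled points run from CDH13 at -1.96 to GJB6 at 3.46. CLDN16 and CLDN18 are drawn at their fitted values, although no NP18 array was well above background for either.

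Beyond the members, 29 of 54 other junction and polarity genes were measured. Between pregnant and non-pregnant cows 3.45% of them were called on day 15 and 0% on day 18, against 0.798% and 5.75% of all probes. From NP15 to NP18 10.3% were called and from P15 to P18 17.2%, against 7.16% and 11.9% of all probes. On day 18 none was called between pregnant and non-pregnant cows (limma, median log2 difference 0.06 against 0.07 over all probes). On day 15 the adherens protein NECTIN1 alone was called, lower in P15 (log2 difference -1.39). From NP15 to NP18 the membrane-cytoskeleton linkers RDX (1.34) and MSN (1.52) rose and NECTIN1 fell (-1.73). From P15 to P18 the polarity gene PARD3 (1.01), NECTIN4 (1.81) and the microvillus protein EZR (1.14) rose, and the cytolinker PLEC, well above background in 2 of 4 P18 arrays, fell (-1.75). VIL1, another microvillus protein, also passed the test in the higher direction, with 1 of 4 P18 and 2 of 3 P15 arrays well above background. The median log2 change over those 29 genes was 0.48, against 0.29 over the members and 0.12 over all probes.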

How the data were processed

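The authors labelled endometrial RNA with Cy3, hybridized 1 sample to each custom bovine array of 60-mer probes, and extracted signals with Agilent Feature Extraction 9.5. Per the file headers, the deposited scanner values are linear intensity with background removed. The authors also deposited a log2 table, which equals log2 signal minus a constant near the 75th percentile of each array; it was used as an alternative. Spots flagged as outliers were left out, saturated spots were kept, and each intensity was divided by its array's median, as in the study's methods. A probe was tested when 3 or more of the 15 arrays measured it well above background. Group means were fitted over all arrays by limma 3.58.1 (R 4.3.3, with Python 3.11.15 for tables), with Benjamini-Hochberg adjustment over 13164 probes. The steps were tested on simulated data. Members and lists were chosen with earlier results of these data known. Genes named in full were, per comparison, up to 10 called members in each direction by adjusted p and a core epithelial panel, of which DSG2, GJB2, KRT18 and MUC16 had no member probe. Where no array of the lower group was well above background, folds are set against the lowest signal well above background. They are bounds only where every array of the higher group was well above background. Names and neighbours come from RefSeq (ARS-UCD2.0); the build used for the array is not given in the sources used here. The study states 4 animals per stage, and 3 P15 arrays were analysed here. The number of arrays limits the precision. The values of 1 member, included in the counts, are not reported here.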

Additional observations from a re-analysis of the deposited data

Results flagged for a closer look

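Single arrays stood apart from the others of their group in 4 of 111 groups of 4 arrays examined over 37 named probes, and chance alone gives about 1 in 20. The gap to the nearest array, as a share of the group's range on the log2 scale, was 0.900 for KRT14 in P18 replicate 3 (0.915 against at most 0.718 in the others), 0.945 for TCHP by probe A_73_120442 in P18 replicate 3 (0.441), 0.898 for DSC2 by probe ABR1888 in P18 replicate 4 (16.8), and 0.866 for KRT19 in NP18 replicate 1 (5.46).

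The effect of pregnancy differed between days 15 and 18 for 5 members, by the interaction in limma. The log2 interaction was 3.05 for GJB1, 2.69 for TIMD4, 2.44 for CLDN16, 1.69 for KRT75 and 1.22 for KRT14. For CLDN16 the fitted value depends on NP18 arrays of which none was well above background, so it is no estimate of size.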

How the results depend on the processing

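None of 36 called results of named members reversed under any alternative, and 14 kept their call without each array in turn. CLDN16 on day 18 is among the 14, though none of its NP18 values was well above background. Counts of called members moved as follows. On day 15 the count of 1 became 2 with quantile normalization (134 over all probes), with normexp (114) or with no fold limit (126). It became 5 with array weights (788 over all probes, against 105 as reported) and 3 by the methods' t-test without adjustment (433 over all probes). It became 0 by limma with scan day as a block, where 5 members had an unadjusted p under 0.05. The replicate block (11 such members) and the 2 groups alone (12) also gave 0 by limma. So did the methods' t-test after Benjamini-Hochberg adjustment (10). Over all probes the counts in these settings were 0, 8, 2 and 0, in that order. On day 18 the count of 8 became 5 with the filter on all 15 arrays, 17 (8 higher, 9 lower) with array weights, 0 by limma with scan day as a block (9 unadjusted), 3 with the 2 groups alone, and 16 (9 higher, 7 lower) and 2 by the methods' t-test without and with adjustment. The day 18 count over all probes went from 757 to 543, 1373, 49, 477, 1157 and 188, in that order. The interaction count of 5 became 15 with normexp and 11 with array weights, while the count over all probes went from 358 to 1329 and 1283. It became 2 with slide as a block, 2 with the replicate block and 0 by limma with scan day as a block (10 unadjusted). Over all probes the interaction count went to 172, 192 and 0, in that order. Between days in non-pregnant cows the count of 5 became 8 with 75th percentile scaling, with the authors' table or with no fold limit, 9 with array weights, and 2 with scan day as a block, with the 2 groups alone or by the adjusted t-test. Over all probes that count went from 942 to 1001, 999, 1421, 1481, 54, 157 and 137, in that order. In pregnant cows the count of 18 became 0 by limma with scan day as a block (19 unadjusted), and the count over all probes went from 1566 to 0. Leaving out each array gave 0 to 3 members on day 15 and 5 to 11 on day 18. Over all probes those counts were 4 to 344 and 428 to 1043. The interaction gave 0 to 5 members and 59 to 549 of all probes. Without P15 replicate 1 it gave 0 members by limma, with 16 unadjusted, and 59 of all probes. Between days in non-pregnant cows there were 4 to 9 members and 616 to 1565 of all probes. The 9 came without NP18 replicate 1, with 5 higher and 4 lower, beside the 1565. In pregnant cows there were 7 to 19 members and 737 to 1730 of all probes. Without P15 replicate 1 these were 7 and 737, and without P15 replicate 2 they were 10 and 883.

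Samples with the same replicate number shared only that number, with correlations of deviations from -0.26 to 0.30. The replicate block gave 8 members on day 18, 5 between days in non-pregnant cows and 14 in pregnant cows. Over all probes the replicate block gave 614, 828 and 1145, in that order. Scaling by the 75th percentile moved the median of all probes by -0.30 between days in pregnant cows, by -0.12 in non-pregnant cows and by -0.18 in the interaction; called members kept their sign. Signal over background limits CLDN16, CLDN18, KRT15 and CLDN15, which were dim in at least 1 group compared. The causes of these changes were not tested.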
